A study of Homo sapiens with 27 samples.

Results

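Total RNA of U2OS cells, a human osteosarcoma line, was compared between cells that received the shRNA 'TPR A' and cells that received the shRNA 'TPR D', with 3 libraries each. These are 6 of the 27 libraries of an RNA fractionation experiment, chosen by their labels. No control library enters the comparison. A lentivirus delivered each shRNA, and the cells were harvested after 5 days, so all 6 cultures carried a lentiviral vector and an shRNA against the same gene, TPR. A part of each culture was kept as total RNA and the rest was split into a nuclear and a cytoplasmic/ER fraction, where ER is the endoplasmic reticulum, and poly(A)-selected RNA of all 3 was sequenced. The labels number the libraries of a group 1 to 3 and do not say whether the numbers stand for separate cultures. The study's methods call them biological replicates without further detail. The p-values measure the spread between these libraries, which may be technical in part. The line and the medium were shared by every group.

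TPR is a long coiled-coil protein of the nuclear basket, the filamentous structure on the nucleoplasmic face of the nuclear pore, where it anchors the TREX-2 complex and takes part in mRNA export. A short hairpin RNA is processed to a small guide RNA that is loaded into an Argonaute protein and directs cleavage of mRNAs with a fully matching site. Guides can also lower other mRNAs that match only the seed, bases 2 to 8 of the guide, mostly in 3′ untranslated regions, in the way that miRNAs do. Because the seeds of separate hairpins differ, 2 hairpins against 1 gene share the loss of the target but not their other matches. The comparison asks which transcripts differed between cells in which the same mRNA was depleted through different sites.

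The target sites are shown because they are the designed difference between the groups. Both were read from the reference, GRCh37, on the minus strand of chromosome 1, and both lie in the coding sequence of TPR, whose reference transcript has 51 exons. The TPR A site lies in exon 20 at chr1:186320571-186320591 and the TPR D site in exon 31 at chr1:186307192-186307212. They are written 5′ to 3′ on the mRNA strand, and the capitals mark the 7 bases that pair with the seed of the guide.
TPR A site: gcgatctgaaacaGAAACCAa
TPR D site: cgtaggtacaagaCTCAATAt

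TPR mRNA differed between the hairpins by less than the spread of the libraries. Its value in the total fraction, in fragments scaled to transcript length and library size (FPKM), was 4.36, 3.44 and 4.70 in the TPR A libraries and 3.23, 4.74 and 6.01 in the TPR D libraries. The groups overlapped, with the lowest and the highest value both in TPR D. The difference, TPR A minus TPR D, was -0.15 on the log2 scale (SE 0.27, adjusted p = 0.965 in limma), and the exact two-sided permutation p was 0.8, where 3 against 3 libraries cannot go below 0.1. Without TPR D replicate 3 it was 0.05, so its sign rests on that library. In the control libraries the same mRNA was listed at 28.2 and 25.3 FPKM in replicates 1 and 3 and at 25.7 in the library labelled replicate 2, above every TPR shRNA library. The labels of that library and of control nuclear replicate 2 are in doubt: mitochondrial genes held 0.738% of the FPKM in the library labelled total replicate 2 and 21.8% in that labelled nuclear replicate 2, where the other control libraries had 19.9% and 21.6% in total and 0.969% and 0.944% in nuclear RNA. Control levels of other genes are therefore given for total replicates 1 and 3 only. In the nuclear fraction TPR was between 1.64 and 2.40 FPKM with TPR A and between 1.71 and 3.15 with TPR D.

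The 6 libraries were similar in general measures. Between 14712 and 14820 genes had over 1 FPKM, and the spacing of the low values gave an estimated 60 to 88.9 reads for each FPKM on a transcript of 1 kb, the highest in TPR A replicate 1. The genes of the mitochondrial genome held 18.6%, 15.8% and 19% of the summed FPKM with TPR A and 17.2%, 24.7% and 23.8% with TPR D, a difference of -4.10 percentage points (exact two-sided permutation p = 0.3). TPR D replicate 1 stood apart from the others: its mean Pearson correlation with its own group was 0.9255, where the other libraries had 0.9444 to 0.9618. Values without it are given for many list medians and list genes that moved by more than 1.5 times. An item without such a value was not necessarily stable. Of markers of other cell types, 3 of 10 epithelial, 1 of 10 blood, 4 of 8 neuronal and 0 of 7 endothelial genes passed the filter on low values. The summed epithelial level, mostly KRT8 and KRT18, was 717 to 886 FPKM with TPR A and 583 to 725 with TPR D. The blood list summed to 3.74 to 5.75 against 2.96 to 3.79, the neuronal list to 44.1 to 52.1 against 37.1 to 54, and the endothelial list stayed under 1 FPKM in each library. Mesenchymal and bone genes, which fit an osteosarcoma line, summed to 2160 to 2280 FPKM with TPR A and 1750 to 1860 with TPR D, and their 9 tested members are described with the matrix genes. In bulk RNA, fewer cells of a type and less RNA per cell cannot be told apart, and the part of these levels in the results was not tested.

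Few genes passed the test across the whole table. Of 14901 nuclear-encoded genes with a mean above 1 FPKM over the 6 libraries, 5 passed an adjusted p of 0.05 in limma, 3 higher and 2 lower with TPR A, which is 0.0336% of the genes tested. The unadjusted p was under 0.05 for 1296 genes, or 8.70%, of which 679 were higher and 617 lower with TPR A. With the replicate number entered as a block, 0 genes passed the adjusted threshold. The values of the 3 and 3 libraries did not overlap for 1249 genes higher with TPR A (8.38%) and for 1008 lower with TPR A (6.76%). The difference ranged from -5.06 to 5.03 with a median of -0.01, and 48.7% of genes lay above 0. At the edge of the filter, ENSG00000267606 was kept at a mean of 1.00022 FPKM and RUNDC3A-AS1 was left out at 0.99977.

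**Figure D1:**
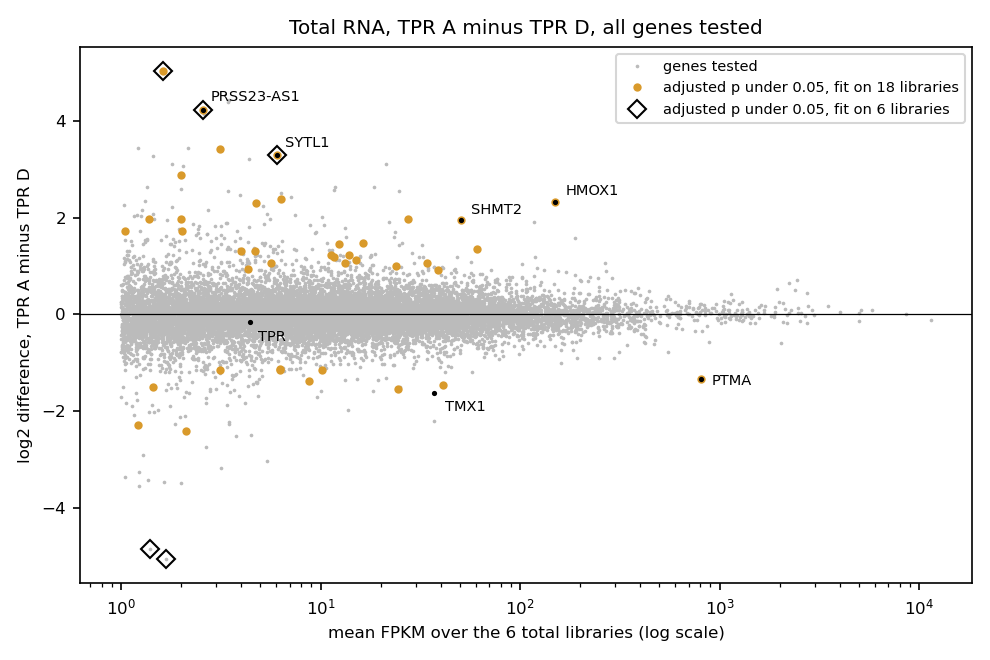
Difference between TPR A and TPR D in total RNA (y axis, log2) against the mean FPKM over the 6 libraries (x axis, log scale) for the 14901 genes tested. Diamonds mark the 5 genes that passed in the fit on the 6 libraries and filled circles the 40 that passed in a fit on 18 libraries; TPR lies close to 0, while HMOX1 and SHMT2 are the labelled genes of high level above it and PTMA and TMX1 those below.

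Only 2 of the 5 called genes have a gene symbol, and both rose with TPR A relative to TPR D. PRSS23-AS1 is a long non-coding RNA (lncRNA) gene on the minus strand of chromosome 11 (GRCh37, 86603256 to 86636079), antisense to the protease gene PRSS23. It was listed at 5.34, 4.43 and 5.13 FPKM with TPR A and at 0.135, 0.143 and 0.215 with TPR D, so the TPR A libraries lay far above those of TPR D. Its difference was 4.24 on the log2 scale (SE 0.30, adjusted p = 0.0172 in limma), a factor of 18.9. The library kit keeps the strand, but whether the authors' quantification used it is not given in the sources used here, so reads of the antisense pair may not be told apart. PRSS23 itself was listed at 1.00, 0.474 and 0.368 FPKM with TPR A and at 0.944, 1.05 and 3.31 with TPR D. In control replicates 1 and 3 PRSS23-AS1 was at 3.14 and 2.99 FPKM, between the groups.

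SYTL1, on chromosome 1 (GRCh37, 27668511 to 27680428, plus strand), encodes a synaptotagmin-like protein that binds RAB27 on secretory vesicles. It was listed at 6.70, 15.2 and 11.4 FPKM with TPR A and at 0.868, 1.01 and 0.993 with TPR D. Every TPR A library lay well above the highest TPR D library, and the difference was 3.30 (SE 0.31, adjusted p = 0.0264 in limma). Control replicates 1 and 3, at 1.02 and 0.571 FPKM, were close to the TPR D libraries.

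The other called features have no gene symbol in the annotation used and are very small models or are listed at 0 in 1 group. ENSG00000227161, a lncRNA model of 97 bases, was listed at 2.55, 3.47 and 3.78 FPKM with TPR A and at 0 in all 3 TPR D libraries. It was above 0 in no other library of the 27, also not in the nuclear and cytoplasmic/ER fractions of the same TPR A cells. ENSG00000255186, a lncRNA model of 151 bases, was listed at 0 in the TPR A libraries and at 4.90, 2.61 and 2.61 FPKM in those of TPR D. ENSG00000273266 was listed at 0 with TPR A and at 3.44, 2.51 and 2.44 with TPR D. Over all 27 libraries these 2 features were above 0 in 8 and 11 libraries, at 2.61 to 4.90 and 2.34 to 3.53 FPKM, and never between 0 and the lower of these values. The adjusted p of each of these 3 features was 0.0235 in limma. The number of reads behind such steps was not determined.

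The fit was repeated on all 18 libraries with a TPR shRNA, which estimates the spread from 6 groups in place of 2. The libraries of the 3 fractions come from the same cultures, and this fit counts them as separate. It called 40 genes, 0.268% of those tested, 29 higher and 11 lower with TPR A, and for all 40 the groups were apart in the total fraction. Of these, 3 were among the 5 called from the 6 libraries. Without TPR D replicate 1 the fit on the remaining 5 libraries called 15 genes (0.101%), 14 higher and 1 lower. Leaving out any other single library gave 0 or 1, so the count depends on which library is dropped. With 2 libraries left in TPR D, SPINK6 (4.24), SLC17A7 (2.06), HMOX1 (2.47) and TMX3 (-1.41) were among the 15.

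Among the genes with the lowest p that stood higher with TPR A, HMOX1 and SHMT2 were of high level in the TPR A libraries. HMOX1 encodes haem oxygenase 1, which breaks down haem and is induced by oxidative stress. It was listed at 177, 251 and 328 FPKM with TPR A and at 55.7, 40.1 and 47.5 with TPR D, and each TPR A library exceeded each TPR D library more than 3-fold. The difference was 2.34 (SE 0.27), a factor of 5.05, with an adjusted p of 0.0672 in limma on 6 libraries and 0.0131 on 18. In the control libraries labelled replicates 1 and 3 it was at 27.1 and 31.5 FPKM, so it was nearer to control in the TPR D cells.

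SHMT2, the mitochondrial serine hydroxymethyltransferase of one-carbon metabolism, was listed at 82.3, 83.5 and 74.6 FPKM with TPR A and at 16.5, 28.7 and 17.4 with TPR D. The difference was 1.95 (SE 0.23, adjusted p = 0.0672 in limma on 6 libraries and 0.00947 on 18). Control replicates 1 and 3 were at 93.2 and 74.1 FPKM, so for SHMT2 it was the TPR D cells that were far from control.

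Other genes of this group were of lower level. SLC17A7, a vesicular glutamate transporter, was listed at 8.04, 8.18 and 7.58 FPKM with TPR A and at 1.03, 1.76 and 1.85 with TPR D, a difference of 2.30 (SE 0.25, adjusted p = 0.0584 in limma). It stood just outside the threshold and passed on 18 libraries (adjusted p = 0.000740 in limma). IGFL3, an insulin growth factor-like gene, was at 51.2, 52.5 and 29.5 against 11.6, 10.5 and 9.87 FPKM, and NECTIN4, a cell adhesion protein, at 2.84, 3.8 and 3.14 against 0.728, 0.670 and 0.815. Their differences were 1.98 and 1.97 (adjusted p = 0.0872 and 0.0942 in limma), and both passed on 18 libraries (0.00921 and 0.000527).

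The remaining genes named in this direction had differences between 1.09 and 1.37 and did not pass on 6 libraries (adjusted p = 0.136 in limma for each). LASP1, an actin-binding LIM and SH3 protein, was the most abundant of them, at 80.6, 80.9 and 72.3 FPKM with TPR A and 35.6, 39.6 and 32.6 with TPR D. In control replicates 1 and 3 it was at 116 and 108 FPKM. YBX2, a germ cell cold-shock domain protein, was at 5.34 to 6.36 against 2.08 to 2.41 FPKM, and DCLK2, a doublecortin-like kinase, at 5.81 to 7.39 against 2.39 to 2.72. GPSM3, a G-protein signalling modulator, was at 4.25 to 5.60 against 1.77 to 1.92. YBX2 and DCLK2 passed on 18 libraries (adjusted p = 0.0443 and 0.0349 in limma), and LASP1 and GPSM3 did not (0.0746 and 0.0696).

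Of the genes with a symbol that stood lower with TPR A, the pair with the lowest p encodes related proteins. TMX1 and TMX3 are thioredoxin-related transmembrane protein disulfide isomerases of the ER. TMX1 was listed at 20.2, 18.3 and 16.7 FPKM with TPR A and at 66.2, 45.7 and 56.3 with TPR D, a difference of -1.62 (SE 0.20, adjusted p = 0.0872 in limma). TMX3 was at 12, 11.6 and 13.2 with TPR A and at 25.6, 32.0 and 32.8 with TPR D, a difference of -1.31 (SE 0.17, adjusted p = 0.0945 in limma). For both genes the libraries of each group lay close together and the groups were well apart. Neither passed on 18 libraries (adjusted p = 0.0696 and 0.117 in limma). In control replicates 1 and 3 TMX1 was at 48.9 and 41.9 and TMX3 at 36.9 and 43.6 FPKM. For TMX1 the TPR A libraries were the ones below control, while for TMX3 both groups were below control and TPR A was further from it.

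EREG, which encodes the growth factor epiregulin, was of low level. It was at 0.305, 0.292 and 0.459 FPKM with TPR A and at 2.62, 1.80 and 1.82 with TPR D, a difference of -2.29 (adjusted p = 0.136 in limma). GPAT3, an acyltransferase of triglyceride synthesis in the ER, was at 4.54, 5.51 and 4.55 against 14.4, 14.2 and 9.41 FPKM, a difference of -1.37 (adjusted p = 0.158 in limma). Both passed on 18 libraries, with adjusted p of 0.0272 and 0.00947 in limma. H1-10, which encodes a linker histone outside the replication-dependent clusters, was the most abundant gene named in this direction, at 115, 95.6 and 114 FPKM with TPR A and 205, 228 and 201 with TPR D. Its difference of -1.0 (SE 0.17) did not pass in either fit (adjusted p = 0.170 and 0.234 in limma).

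The homeobox gene HOXA10 was at 5.96 to 6.78 FPKM with TPR A and 11.2 to 16.5 with TPR D, and the sphingomyelinase-like gene SMPDL3B at 3.61 to 4.36 against 7.48 to 10.2. Both had a difference of -1.14 and passed on 18 libraries (adjusted p = 0.0476 and 0.0361 in limma). TM9SF2, an endosomal and Golgi transmembrane protein, was at 11.9 to 13.1 against 21 to 25.3, SCML1, a Polycomb-like gene on the X chromosome, at 4.72 to 5.08 against 8.33 to 10.3, and ADAM28, a metalloprotease, at 2.31 to 2.98 against 5.5 to 9.14. These 3 did not pass in either fit. The lncRNA genes MIR193BHG, host of miR-193b, and LINC00598 were at 2.65 to 3.27 against 6.25 to 6.37 FPKM and at 0.0339 to 0.328 against 1.81 to 4.01, and did not pass in either fit.

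**Figure D2:**
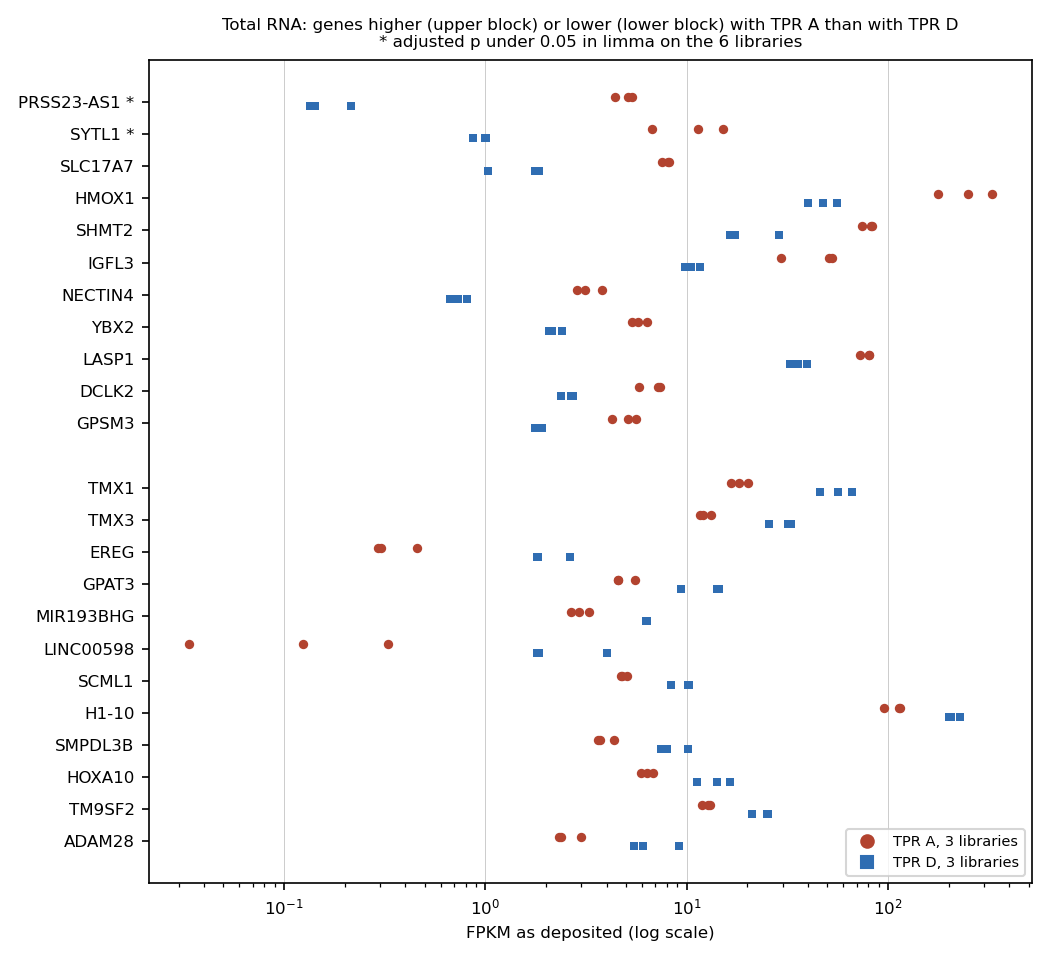
FPKM as deposited (x axis, log scale) of 23 genes named by rule, 11 higher and 12 lower with TPR A, in the 3 TPR A libraries (circles) and the 3 TPR D libraries (squares). Only PRSS23-AS1 and SYTL1, marked with an asterisk, passed on the 6 libraries; in each row the circles and squares are apart, because the rule asked for groups that do not overlap.

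Of the other genes that passed on 18 libraries and not on 6, these 8 were picked after their values were seen. DNM1L, the dynamin-related GTPase of mitochondrial fission, was listed at 112, 76.6 and 76.6 FPKM with TPR A and at 31.3, 39.7 and 29.6 with TPR D, a difference of 1.35 (adjusted p = 0.0265 in limma on 18 libraries). GLUD1, mitochondrial glutamate dehydrogenase, was at 49.5, 48.1 and 55.9 against 24.6, 28.5 and 25.8 FPKM, a difference of 0.93. COX10, which is needed to make haem A for cytochrome c oxidase, and TK2, the mitochondrial thymidine kinase, had differences of 1.06 and 1.07. PTPMT1, a mitochondrial phosphatase of cardiolipin synthesis, differed the other way, at 26.4, 21.4 and 17.5 against 83.1, 50.6 and 46.6 FPKM (-1.46). PTMA, the very abundant prothymosin alpha, was at 584, 506 and 311 with TPR A and at 1540, 990 and 907 with TPR D, a difference of -1.33 (adjusted p = 0.0476 in limma on 18 libraries). SP140 and SP110, genes of nuclear body proteins, overlap on opposite strands of chromosome 2. They were at 14.8 to 18 against 5.97 to 7.72 FPKM and at 13.9 to 19 against 6.78 to 7.15, with differences of 1.24 and 1.19. As for PRSS23-AS1, reads of this pair may not be told apart, so they may not be separate results.

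Gene lists were used to see whether groups of related genes lay to 1 side. They were read as counts and medians beside those of all genes tested, whose median was -0.01, and no list was tested as a set. No gene of any list passed on the 6 libraries. Genes of the lists that passed on 18 libraries were HMOX1, SHMT2 and the histone gene H2AC6.

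The list whose members lay furthest to 1 side was that of p53 target genes, genes of cell cycle arrest, apoptosis and repair that the transcription factor p53 activates. All 24 members tested were above 0, between 0.13 and 1.25, with a median of 0.44, where 48.7% of all genes were above 0. Their groups did not overlap for 12, all higher with TPR A, where 8.38% of all genes did so in that direction. CDKN1A, the cyclin-dependent kinase inhibitor p21, was listed at 189, 218 and 203 FPKM with TPR A and at 95.8, 118 and 108 with TPR D, a difference of 0.90 (SE 0.17, adjusted p = 0.183 in limma). GDF15, a stress-induced cytokine, was at 31.2, 27.2 and 21.3 against 14.8, 10.9 and 7.70 FPKM, a difference of 1.25 (SE 0.27, adjusted p = 0.232 in limma). FDXR (0.77), BBC3 (0.68), which encodes the apoptosis regulator PUMA, DDB2 (0.59) and BTG2 (0.57) followed, while MDM2 (0.43) and BAX (0.31) had overlapping groups. In control replicates 1 and 3 CDKN1A was at 115 and 206 FPKM and GDF15 at 12.2 and 30.4. FDXR was at 40.2 and 71.5 there and DDB2 at 32.9 and 46, so no single control level can be set beside the groups. The median of the p53 list was 0.40 between the replicates numbered 1, 0.46 between those numbered 2 and 3, and 0.38 without TPR D replicate 1. In the nuclear and the cytoplasmic/ER fraction it was 0.47 and 0.30, where the medians of all genes were -0.01 and -0.02.

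**Figure D3:**
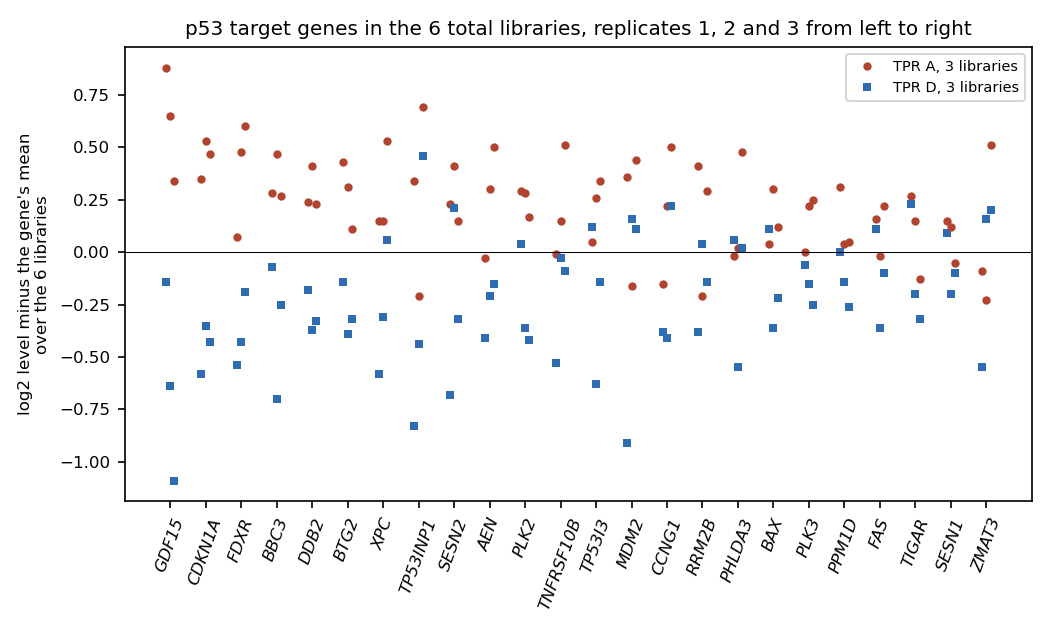
Normalised log2 level of 24 p53 target genes in each of the 6 total libraries, with the mean of the gene over the 6 libraries subtracted (y axis), ordered by the difference between the groups. The TPR A libraries (circles) lie above those of TPR D (squares) on average in every gene, from 1.25 for GDF15 at the left to 0.13 for ZMAT3 at the right. Overlap of the groups does not follow this order: PLK3 and PPM1D toward the right are apart, while TP53INP1 and SESN2 further left overlap.

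G2 and mitosis genes, the kinases, cyclins and spindle proteins of dividing cells, lay on the other side by less. Of 40 members, 37 were below 0 and 3 above, with a median of -0.18 and a range of -0.57 to 0.23. The groups overlapped for every member, and the lowest p belonged to CENPF (-0.42), KIF11 (-0.33), AURKA (-0.35) and TOP2A (-0.57), with adjusted p of 0.612 to 0.726 in limma. The shift was not present in each pair of libraries: the median was 0.05 between the replicates numbered 1 and -0.27 between those numbered 2 and 3. In the nuclear and the cytoplasmic/ER fraction it was -0.25 and -0.19. DNA replication genes had a median of 0.03 over 37 members, with 3 higher and 2 lower without overlap (8.38% and 6.76% of all genes), among them RFC5 (-0.64), RFC2 (0.51), LIG1 (0.47) and E2F2 (0.47).

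Replication-dependent histone genes, whose mRNAs mostly end in a stem-loop and not in a poly(A) tail, had a median of 0.40 over 22 members. They ranged from -0.47 to 1.88 with 15 above 0, and their nuclear median was -0.13. H4C8 was listed at 9.64, 10.0 and 6.14 FPKM with TPR A and at 3.23, 3.07 and 3.25 with TPR D (difference 1.35, adjusted p = 0.165 in limma), H2AC6 at 15.9, 24.5 and 14.4 against 4.25, 9.05 and 6.33 (1.46, adjusted p = 0.213), and H2BC21 and H2BC5 had differences of 0.98 and 0.71. H2AC6 passed on 18 libraries (adjusted p = 0.0476 in limma). For H4C8 the nuclear difference was -0.23.

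Oxidative and amino-acid stress lists had medians near that of all genes. In the list of targets of NRF2, the regulator of the antioxidant response, HMOX1 had the largest difference, while the median was 0.06 over 20 members, and next to it were SQSTM1 (0.67, adjusted p = 0.472 in limma), which encodes the autophagy receptor p62, PGD (0.63, 0.453) and ABCC3 (-0.51, 0.736). The list of ATF4 targets, the integrated stress response, had a median of 0.11 over 25 members with 20 above 0. SHMT2 was the largest, and ATF3 (0.73), CEBPB (-0.78) and SESN2 (0.53) did not pass. ER chaperones had a median of -0.10, with 6 of 21 above 0. The lowest p belonged to SDF2L1, at 51.4, 63.3 and 54.5 FPKM with TPR A and 109, 68.6 and 72.1 with TPR D. Its difference was -0.56 (adjusted p = 0.548 in limma). It was the only member without overlap, where 6.76% of all genes were lower without overlap. CANX, which encodes calnexin, was at 131, 89.3 and 135 FPKM with TPR A and at 110, 256 and 246 with TPR D. Its groups overlapped (-0.74, adjusted p = 0.627 in limma), and DNAJC3 (-0.25) and SYVN1 (-0.32) followed. Heat-shock genes had a median of -0.07, with DNAJB1 (0.77), HSPB8 (0.40), HSPH1 (-0.42) and BAG3 (-0.26) the 4 with the lowest p.

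A lentivirus or a hairpin RNA can induce interferon-stimulated genes, so these were examined. Their median was 0.04 over 31 members, with 17 above and 14 below 0. IRF9, a subunit of the factor that activates these genes, was listed at 12.6, 13.3 and 13.0 FPKM with TPR A and at 3.18, 6.05 and 6.13 with TPR D (1.35, adjusted p = 0.187 in limma). IRF1 (0.85) and SAMD9L (0.85) lay in the same direction and IFI44L (-1.45) in the other. Without overlap, 6 of the 31 were higher and 2 lower with TPR A, where 8.38% and 6.76% of all genes were. The summed level of the list was 525 to 574 FPKM with TPR A and 595 to 629 with TPR D. The sum is weighted by abundant members, such as IFITM3 (mean 169 against 221 FPKM) and IFITM2 (86.4 against 118), and so differs in direction from the counts. The inflammatory cytokine list, which also holds genes that do not encode cytokines, had a median of 0.04 over 16 members. CCL20 (-0.86), BIRC3 (0.62), NFKB2 (0.38) and RELB (0.38) had the lowest p, and of these only CCL20 encodes a cytokine.

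No gene of the pore, of mRNA export or of the small RNA pathway passed the test. The nuclear basket and TREX-2 list had a median of -0.07 and a range of -0.18 to 0.33 over 12 members, with no member whose groups were apart. The median was -0.35 between the replicates numbered 1, 0.13 between those numbered 2 and 3, and 0.11 without TPR D replicate 1, so its sign rests on that library. MCM3AP, the scaffold of TREX-2 also named GANP, was at 16.7, 15.0 and 23.4 against 9.14, 17.1 and 17.8 FPKM (0.33, adjusted p = 0.881 in limma), MAD1L1 had a difference of 0.18 and ZC3HC1 of -0.08. Of pore genes outside the basket, 2 were higher and 4 lower without overlap among 29 (8.38% and 6.76% of all genes), and NUP54 (-0.56), AHCTF1 (-0.52), NUP214 (-0.45) and NUP160 (0.42) had the lowest p (adjusted p = 0.453 to 0.548 in limma). Among export adaptors and the receptor, THOC1 (-0.52) and THOC5 (0.66) were without overlap and THOC2 (-0.37) and NXF1 (-0.32) were not. Genes of the small RNA pathway had no member without overlap: DICER1, which cuts the loop from hairpins and miRNA precursors, was at 18.3, 14.1 and 22.0 against 14.6, 33.7 and 25.6 FPKM (-0.41, adjusted p = 0.837 in limma), and XPO5 (0.38), TNRC6A (-0.21) and PRKRA (-0.16) followed.

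In the list of TGF-beta and YAP targets, with a median of 0.00 over 23 members, ACTA2, smooth muscle actin, was listed at 17.1, 18.1 and 25.8 FPKM with TPR A and at 5.72, 5.57 and 8.13 with TPR D (1.60, SE 0.24, adjusted p = 0.136 in limma). TAGLN, an actin-binding protein also called transgelin, was at 132, 295 and 133 against 34.4, 70.2 and 37.9 (1.91, adjusted p = 0.207), and the receptor kinase AXL at 118, 174 and 215 against 64.5, 74.4 and 71.6 (1.20, adjusted p = 0.211), while ID2 (-0.79) was on the other side. Of 42 matrix genes 6 were higher and 4 lower without overlap, where 8.38% and 6.76% of all genes were. MMP2, a gelatinase, was at 200, 245 and 220 against 105, 114 and 134 FPKM (0.89, adjusted p = 0.211 in limma), and MMP3, stromelysin, at 22.9, 27.1 and 32.8 against 54.7, 52.0 and 52.0 (-0.98, adjusted p = 0.184). FBN1, fibrillin, had a difference of 0.97 and LAMA4, a laminin chain, of -1.59. Among the mesenchymal and bone markers 8 of 9 were above 0 with a median of 0.25, and ALPL, the alkaline phosphatase of bone, was at 4.34, 6.04 and 4.88 against 1.59, 1.74 and 2.13 FPKM (1.40, adjusted p = 0.158 in limma). COL1A1 (0.50), SPARC (0.32) and VIM (0.28) were nearer to 0.

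Glycolysis and hypoxia genes had a median of 0.20 over 31 members with 25 above 0, and 8 were higher and 1 lower without overlap (8.38% and 6.76% of all genes). PDK1 (0.74), NDRG1 (0.60) and SLC2A1 (0.49), the glucose transporter GLUT1, were higher and EGLN1 (-0.62), an oxygen-sensing prolyl hydroxylase, was lower (adjusted p = 0.364 to 0.553 in limma), but the cytoplasmic/ER median was -0.07. Cholesterol synthesis genes had a median of -0.13 over 24 members, with 3 lower without overlap (6.76% of all genes), MSMO1 (-0.74), IDI1 (-0.71) and SC5D (-0.53), and with SQLE at -0.46. The median was 0.08 between the replicates numbered 1, -0.22 between those numbered 2 and 3, and -0.23 without TPR D replicate 1. In the cytoplasmic/ER fraction their median was -0.30.

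The large housekeeping lists had medians near 0 that differed in sign between the pairs of libraries. Cytosolic ribosomal protein genes had a median of 0.03 over 88 members, -0.49 between the replicates numbered 1 and 0.30 between those numbered 2 and 3, and RPS16 (0.66), RPS27L (0.45), RPS4X (0.27) and RPL3 (0.22) had the lowest p. Mitochondrial ribosomal protein genes had -0.11 over 76 members, -0.52 in the pair numbered 1 and 0.12 in the others, with MRPS34 (-0.55), MRPL9 (-0.49), MRPS6 (-0.34) and MRPS27 (0.27) named. Proteasome genes had 0.04 over 36 members, -0.41 and 0.19 in the same order, with PSMD2 (0.41), PSMB8 (0.31), PSMC1 (0.30) and PSMD13 (0.21) named. TPR D replicate 1, the library that stood apart, is in the pair numbered 1, and without it the 3 medians were 0.36, 0.13 and 0.18. Splicing factors of the SR and hnRNP families had a median of -0.16 over 29 members, with 23 below 0, and HNRNPA3 (-0.47), TRA2A (-0.32), SRSF11 (-0.31) and HNRNPA1 (0.31) had the lowest p. Immediate-early genes had -0.06 over 21 members, where ZFP36 (-0.69), JUN (0.63), BTG1 (0.56) and FOSL2 (0.51) were without overlap, 3 higher and 1 lower (8.38% and 6.76% of all genes). Their median was -0.42 between the replicates numbered 1, 0.24 between those numbered 2 and 3, and 0.16 without TPR D replicate 1, so its sign also rests on that library. Of the listed lncRNAs, H19 (-1.26), MALAT1 (-0.64) and PVT1 (0.32) were without overlap and LINC00511 (0.64) was not.

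Leaving out TPR D replicate 1 also moved other medians and genes of the lists by more than 1.5 times. The median became 0.00 for the interferon list, 0.11 for the inflammatory cytokine list, 0.10 for NRF2 targets, 0.20 for ATF4 targets and -0.04 for ER chaperones. It became 0.06 for DNA replication, -0.07 for splicing factors, 0.11 for mesenchymal and bone markers and 0.03 for TGF-beta and YAP targets. For the small RNA pathway it moved from 0.08 to -0.19 and for mRNA export from -0.07 to 0.01. For the pore outside the basket it moved from 0.08 to 0.0 and for matrix genes from 0.03 to 0.07. Nearer to 0 without that library were MCM3AP (0.04), MAD1L1 (0.09), THOC2 (-0.17), NXF1 (-0.15), XPO5 (0.11), PRKRA (-0.06), CCL20 (-0.34), SESN2 (0.32), HSPH1 (-0.21), FOSL2 (0.29), TOP2A (-0.19), COL1A1 (0.22) and SPARC (0.11). The same held for MRPS34 (-0.35), MRPL9 (-0.25), MRPS6 (-0.12), HNRNPA3 (-0.31), TRA2A (-0.21), PSMD2 (0.26) and SDF2L1 (-0.34). Further from 0 were CANX (-1.12), DICER1 (-0.73), TPR (-0.37), ZC3HC1 (-0.13), RELB (0.75), PSMB8 (0.55), RPS16 (1.04), RPS27L (0.85), RPS4X (0.42), RPL3 (0.35) and KRT18 (0.13). DNAJC3 (-0.45), SYVN1 (-0.57), RBFOX3 (0.45) and SYT1 (-0.25) were also further from 0. None of the genes given here passed without that library (adjusted p = 0.14 to 0.961 in limma).

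**Figure D4:**
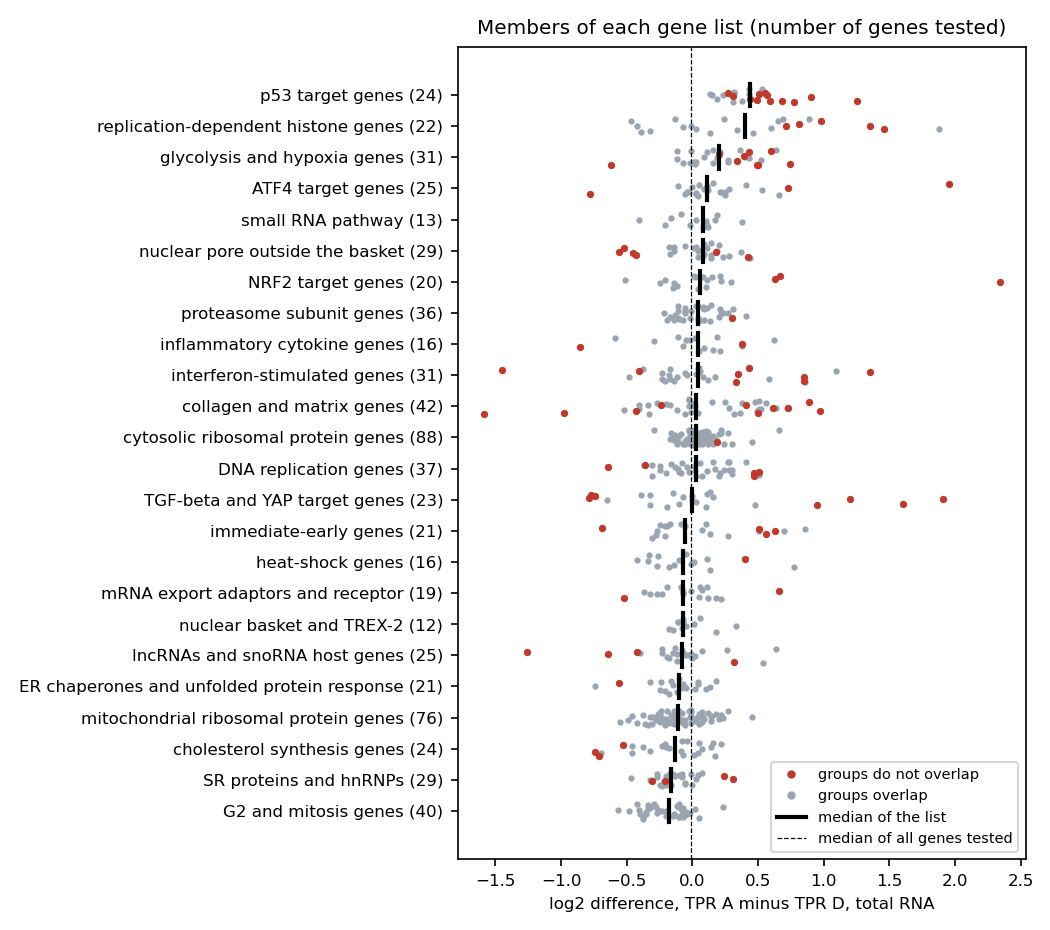
Log2 difference between TPR A and TPR D in total RNA (x axis) of the members of 24 gene lists, with the number tested in brackets. Black bars are medians, the dashed line is the median of all genes (-0.01), and red points are genes whose 3 and 3 libraries do not overlap; the p53 list has the highest median (0.44) with no member below 0, and the G2 and mitosis list the lowest (-0.18).

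The same cultures' nuclear and cytoplasmic/ER libraries give a further look at the named genes. They are new libraries but not new cultures, so they repeat the library and not the treatment. Of 23 genes named by rule, 22 had the same sign in the nuclear fraction, the exception being LINC00598 at 0.00, and 23 in the cytoplasmic/ER fraction. Of the 11 higher with TPR A, 10 were without overlap in the nuclear fraction and 10 in the cytoplasmic/ER fraction, where 8.15% and 5.78% of all genes were. Of the 12 lower, 10 and 8 were without overlap, where 8.32% and 5.21% of all genes were. HMOX1 had a difference of 2.68 in nuclear and 1.95 in cytoplasmic/ER RNA, SHMT2 of 1.70 and 1.53, TMX1 of -1.51 and -1.41 and TMX3 of -1.48 and -1.42. Of the 40 genes called on 18 libraries, 39 had the same sign in either fraction. The libraries of these fractions took part in that fit, so this is not a separate check.

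**Figure D5:**
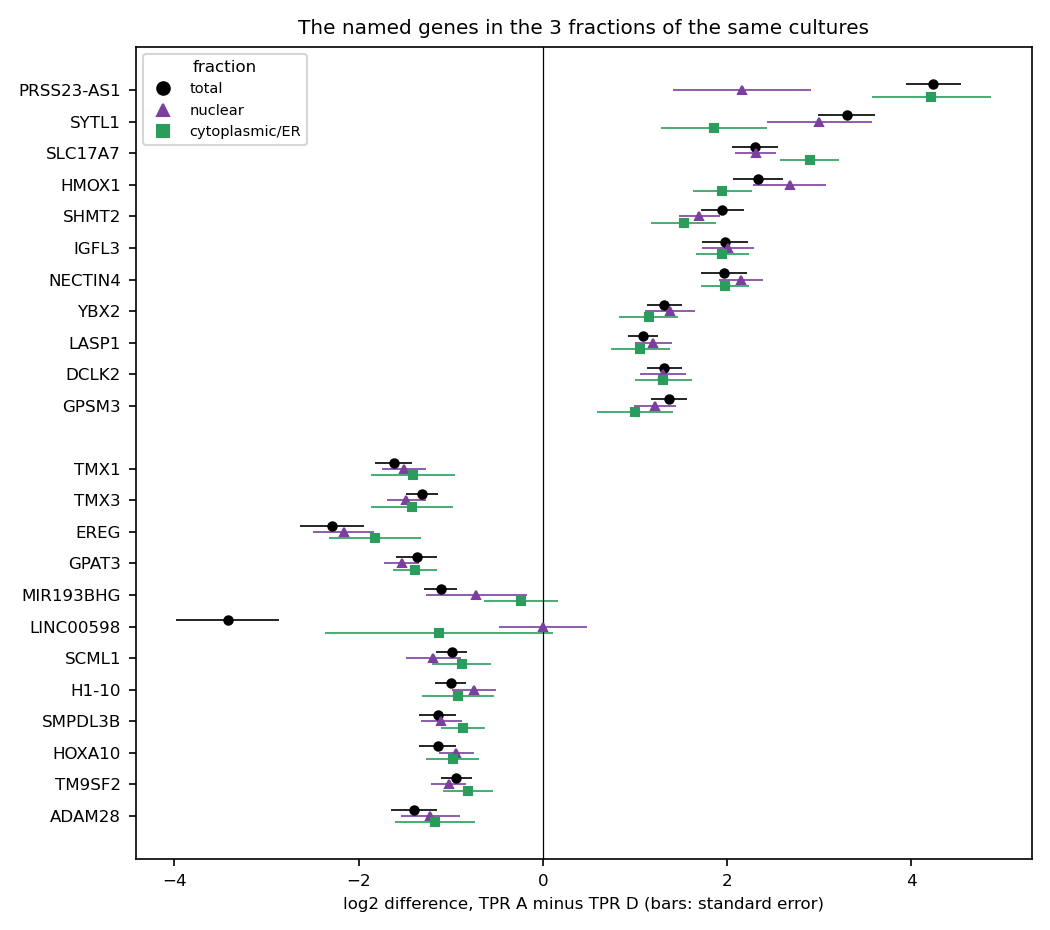
Log2 difference between TPR A and TPR D with its standard error (x axis) for the 23 named genes in total (circles), nuclear (triangles) and cytoplasmic/ER (squares) RNA of the same cultures, 3 libraries per group. Most genes lie at about the same place in the 3 fractions. LINC00598 is at -3.42 in total and 0.00 in nuclear RNA, and MIR193BHG at -1.11 in total and -0.24 in cytoplasmic/ER RNA. PRSS23-AS1 is at 4.24 in total and 2.16 in nuclear RNA, and SYTL1 at 3.30 in total and 1.86 in cytoplasmic/ER RNA.

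Tested within each fraction, 3 genes passed in nuclear RNA (0.0201%) and 0 in cytoplasmic/ER RNA (0.0%), where 888 had an unadjusted p under 0.05. The nuclear genes were SLC17A7 (2.31), ENSG00000227136 (3.20) and LINC02768 (5.18), all higher with TPR A. In these 2 fractions the replicate numbers were counted as pairing the libraries, by a measure whose nuclear values overlapped those of total RNA. Once that number was entered as a block, 0 genes passed in nuclear RNA. ENSG00000227136 was listed in total RNA at 3.62, 4.66 and 2.54 FPKM with TPR A and at 0.333, 0.355 and 0.444 with TPR D, and LINC02768 at 6.37, 5.20 and 0 against 6.90, 0 and 3.67, so its groups overlapped in total RNA. A test of the difference between the fractions, culture by culture, found 0 genes for nuclear against total RNA and 0 for cytoplasmic/ER against total RNA (limma, 187 and 143 at an unadjusted p under 0.05).

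Seed matches were counted because the guides differ in their seeds. Of 12312 tested mRNAs with an annotated 3′ untranslated region, 15.9% held the TPR A match GAAACCA and 9.58% the TPR D match CTCAATA on the mRNA strand, in the reference transcript. The 1610 mRNAs with the TPR A match alone had a median difference of 0.02 and the 837 with the TPR D match alone of 0.00, where the 9523 with neither had 0.00. The mRNAs with at least 2 TPR A matches and none of TPR D had a median of 0.00 (258 mRNAs), and those with at least 2 TPR D matches and none of TPR A of 0.10 (69 mRNAs, 66.7% above 0). Of the named genes, the TPR A match was in 3 of the 10 mRNAs lower with TPR A, which were TMX1, TMX3 and ADAM28, and in 0 of the 10 higher with it. The TPR D match was in 1 of the 10 lower and 1 of the 10 higher, ADAM28 and GPSM3. Among the 36 mRNAs called on 18 libraries, the TPR A match was in 0 of 10 that were lower with TPR A and in 3 of 26 that were higher.

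The windows of TMX1 and TMX3 are shown in the frame of the TPR A site, as examples of the match in mRNAs that stood lower with TPR A, although neither gene passed in either fit. They were chosen after their values were seen, and the match in ADAM28 is not shown. They lie in the 3′ untranslated regions at chr14:51724303-51724323, plus strand, and chr18:66342509-66342529, minus strand (GRCh37). The capitals mark the seed match, and 9 and 13 of the 21 bases are those of the TPR A target site.
TMX1 window: cttttgtatttgtGAAACCAt
TMX3 window: atgatattaagtgGAAACCAg

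The longest unbroken stretch of the TPR A site found anywhere in the transcript, seed match included, was 8 bases in TMX1 and 9 in TMX3. The median over mRNAs was 8, and 28.6% had 9 or more. In the windows shown, the bases on either side of the seed match differ from those of the target site. These counts and windows describe the reference sequence, and whether a guide acts on these mRNAs was not tested.

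Classes of transcript structure had medians close to that of all genes. The 207 intronless mRNAs had a median of -0.08 with 38.6% above 0, and the 12165 with more than 1 exon had 0.00 with 50.7%. Of the intronless mRNAs, 17 were higher and 29 lower without overlap, where 8.38% and 6.76% of all genes were. The 1886 lncRNAs had a median of -0.10, with 37.2% above 0. Across 12372 mRNAs, which are not independent and share the 6 libraries, the Spearman correlation of the difference was 0.0346 with the length of the pre-mRNA, 0.0645 with the number of exons and -0.0182 with the length of the mRNA.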

How the data were processed

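The deposited table holds FPKM values, made by the authors with Salmon on the protein-coding and lncRNA transcripts of Gencode 19 (hg19) and summed to genes with tximport, for 34464 genes in 27 libraries of poly(A)-selected RNA. DESeq2 is also named in the submitters' notes. FPKM values are not counts, so no count model was used, and Salmon can split reads of near-identical genes.

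The 6 total libraries were scaled by median-of-ratios factors, transformed to log2(FPKM + 0.1), and fitted with limma 3.58.1 (trend, R 4.3.3) over the 14901 nuclear-encoded genes with a mean above 1 FPKM, without a block. Differences are TPR A minus TPR D on that scale, which understates changes of low genes. Adjusted p is Benjamini-Hochberg over all genes tested, threshold 0.05. Single values used exact permutation tests over 6 libraries. The script was tested on simulated data. Positions and names come from GENCODE 44 on GRCh37, which matched 32776 IDs. Target sites were located by the hairpins in the study's methods.

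Genes were named by rule: TPR, up to 12 per direction by size among those that passed, filled with the lowest unadjusted p without overlap, and up to 4 per list with the lowest p. A result that the rule selects is not reported here, and the counts of named genes leave it out. Ribosomal and histone lists were taken by symbol pattern among protein-coding genes, without RPS6K kinases. The members and lists were chosen with earlier results of these data known, and seed matches, the test between fractions and the 8 added genes after seeing the data.

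Deviations of same-numbered libraries from their group means correlated at 0.132, 0.241 and 0.246 in nuclear RNA and 0.396, 0.594 and 0.431 in cytoplasmic/ER RNA. This counted as pairing there. In total RNA they correlated at 0.229, -0.0931 and 0.493, which was not counted as pairing. The total and nuclear values overlap, so pairing in total RNA is not excluded. Replicate 1 of each group has descriptions in a different form from the others, so replicate 1 and replicates 2 and 3 were also compared separately. The alternatives were other scalings, pseudocounts, minimum levels, fits on more libraries, a replicate block and leaving out each library.

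Depth was estimated from the steps of low values in 7308 genes, with 250 bases taken off each transcript; 83.5% to 85.4% of these values came within 0.1 of a whole read. It covers counting error only.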

Additional observations from a re-analysis of the deposited data

How the results depend on the processing

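The 5 genes called in total RNA became 1 with a pseudocount of 0.01, 0 with a minimum mean of 5 FPKM, 3 with the minimum taken over all 27 libraries, 0 from replicates 2 and 3 alone, 44 in a fit on 27 libraries and 40 on 18; leaving out 1 library gave 0 to 15, where the 15 came without TPR D replicate 1. With the values as deposited, quantile normalization, a pseudocount of 1, no minimum or no trend there were 4 to 7. With a replicate block there were 0. The median SE then fell from 0.25 to 0.201, and 1729 genes had an unadjusted p under 0.05 in limma. In total RNA the numbers were not counted as pairing the libraries, and 3 of 6 libraries correlated best with their own number. The 3 nuclear calls became 5 and 1 with pseudocounts of 1 and 0.01, 19 without a minimum, 16 with a minimum of 5 FPKM, 7 without the trend, 49 and 52 in fits on 27 and 18 libraries, 0 with a replicate block and 0 from replicates 2 and 3; leaving out 1 library gave 0 to 58, the 58 without TPR A replicate 1. The 0 cytoplasmic/ER calls became 15 without a minimum, 90 and 64 on 27 and 18 libraries, and 0 to 3 with 1 library left out, and stayed 0 with the replicate block. The cause was not tested, though fits on more libraries have more degrees of freedom and those on fewer have less.

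The TPR difference was -0.37 to 0.05 and that of the mitochondrial share -6.45 to -2.70 percentage points with 1 library left out. Small differences that changed sign with 1 library left out were those of ZC3HC1 (-0.16 to 0.01), KRT18 (-0.05 to 0.18), EPCAM (-0.22 to 0.27), RBFOX3 (-0.005 to 0.58), SYT1 (-0.32 to 0.26) and TUBB3 (-0.15 to 0.18). EPCAM was also 0.01 as deposited and on 18 libraries, 0.003 on 27 libraries and 0.16 from replicates 2 and 3, where TUBB3 and SPARC were -0.01. Of 2331 values of 131 named genes under the alternatives, 18 changed sign, 31 newly passed the threshold and 48 no longer did. By the depth estimate, 1 FPKM on a transcript of 1 kb stood for 60 to 88.9 reads, and on shorter transcripts for fewer.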
